A study of Homo sapiens with 12 samples.

Results

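The genes described here are CD74 and the HLA class II genes with their regulator and the protease that trims the CD74 protein: CIITA, CD74, HLA-DRA, HLA-DRB1, HLA-DPA1, HLA-DPB1, HLA-DMA, HLA-DMB and CTSS. They were taken by gene symbol from the gene-level table, and they are 9 of its 60099 genes. The genes were selected on the count of CD74, chosen by its response to IFNα in the 2 sets of cells, so every value of CD74 between doses or between sets is a description and carries no test. The other 8 genes were tested with edgeR, with p adjusted over all 19944 genes tested.

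RNA of Cal27 and HN30 cells, both established lines of head and neck squamous cell carcinoma (HNSCC), was sequenced after 24 h without IFNα or with 20 or 200 ng/ml IFNα. The 12 samples carry the letters A to F with 2 replicates each: A and D were untreated, B and E received 20 ng/ml, and C and F received 200 ng/ml. The letters form 2 sets, A-C and D-F, named by letter here, since the sources at hand do not tie a letter to a line. Each set is 1 cell line, so a difference between the sets is a difference between 2 lines. The labels do not say that replicates came from separate cultures, so p-values measure the spread between these samples, which may be technical.

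HLA class II molecules, which carry peptides of extracellular and endosomal origin to CD4+ T cells, are made of an alpha and a beta chain. CD74, the invariant chain, holds newly made class II molecules until it is cut in the endosome, with cathepsin S (CTSS) removing its last stretch, and HLA-DM then exchanges the remaining fragment for peptide. CIITA is the coactivator that switches these genes on through RFX, CREB and NF-Y proteins bound to the X and Y boxes of their promoters, and it is best known as a target of IFNγ, with IRF1 among the factors that act on its gene. Most epithelial cells hold class II genes silent without such a signal.

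The promoters of the members are shown because the X and Y boxes are what the class II genes and CD74 share. RefSeq promoter windows of 300 bases (250 before the start and 50 after it, build GRCh38.p14) were at hand for 6 of the 9 members, and those of CIITA, HLA-DRA and CTSS were not. Capitals mark exact matches to letters searched on both strands. First comes TGATGA, a core from the X box region, and then CCAAT, the core of the Y box, or its reverse complement ATTGG. A box that differs by a letter is not marked, so a marked stretch need not be the box itself. The slices lie on the minus strand at chr5:150412934-150413007 for CD74, chr6:32589865-32589946 for HLA-DRB1, chr6:32953147-32953229 for HLA-DMA and chr6:32941021-32941135 for HLA-DMB.
CD74: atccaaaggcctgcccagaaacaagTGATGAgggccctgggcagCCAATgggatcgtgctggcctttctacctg
HLA-DRB1: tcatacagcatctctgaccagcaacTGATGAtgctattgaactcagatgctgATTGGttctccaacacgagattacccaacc
HLA-DMA: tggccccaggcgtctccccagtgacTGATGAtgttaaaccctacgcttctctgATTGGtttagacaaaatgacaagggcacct
HLA-DMB: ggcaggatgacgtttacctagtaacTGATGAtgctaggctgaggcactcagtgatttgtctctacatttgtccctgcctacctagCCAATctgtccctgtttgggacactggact

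TGATGA stood in 10.9% and CCAAT in 34.6% of all 35116 windows. The pair, TGATGA followed by CCAAT or ATTGG within 40 bases, stood in 0.769% of them (270 windows). CD74 held the pair with 13 bases between the motifs, HLA-DRB1 with 21 and HLA-DMA with 22. HLA-DMB held both motifs 54 bases apart, and neither of the HLA-DPA1 windows nor that of HLA-DPB1 held the pair. The letters ACTGATGATG are common to HLA-DRB1, HLA-DMA and HLA-DMB, and 0.0854% of the windows (30 of them) held that run. The 2 motifs do not overlap in any of the printed slices. These matches describe letters of the reference genome, not binding in these cells.

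Total counts ran from 10517448 to 16056734 per sample, 12670755 to 16056734 in the untreated samples and 10517448 to 11854183 at 200 ng/ml. Over 13034 well-counted genes the correlation between samples was 0.944 to 0.979 within a set and 0.722 to 0.758 between the sets. Each letter pair differed by far more than sampling noise, with a chi-square of 14.4 to 19.8 per degree of freedom. All 8 interferon-induced check genes, among them MX1 and ISG15, rose past the threshold in both sets at both doses. The summed level of 8 squamous epithelial markers was 2733 to 3350 TPM in A-C and 1186 to 1487 TPM in D-F, where KRT14 had at most 3 counts in any sample. The summed level of 12 blood cell markers was 3.71 to 6.16 TPM in A-C and 3.33 to 7.22 TPM in D-F, and 7 and 8 of them were at 0 in all 6 samples of the set. The sum hides ITGAX, a marker of myeloid and dendritic cells, which had 6 to 27 counts in the A-C samples and 0 in all 6 D-F samples, where HLA-DRA, HLA-DRB1, HLA-DPA1 and HLA-DPB1 were also at 0. CSF1R and CD14, on the same list, did not follow that pattern. CSF1R had 40 to 95 counts in A-C and 47 to 76 in D-F, and CD14 had 8 to 44 and 0 to 20. PTPRC, the general leukocyte marker, had at most 2 counts in any sample, and SPI1, CD79A, MS4A1 and CD3E had none. The part of such cells in the class II values was not tested. In such bulk samples, fewer cells that express a gene and less RNA per cell cannot be told apart.

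Class II genes were expressed in A-C and nearly absent in D-F, with and without IFNα. The summed level of the 9 members was 347 to 494 TPM in A-C and 4.66 to 14.2 TPM in D-F. That sum holds CD74, on which the genes were selected, at 235 to 321 TPM in A-C and 0 to 1.23 TPM in D-F. It also holds the protease CTSS, at 1.00 to 8.38 TPM in D-F. HLA-DRA alone stood at 52.7 to 101 TPM in A-C and 0 in D-F. In A-C, 5 of the 9 had more than 100 counts in all 6 samples, and in D-F 4 of the 9 had none in any sample. Values below are the authors' estimated counts and TPM (transcript abundance scaled for length and depth) in the order of replicates 1 and 2.

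CIITA, the master regulator of the class II genes (chr16:10866222-10932281, plus strand), was counted 570 and 866 times in A, 700 and 746 times in B and 375 and 642 times in C. In D-F it was counted 16 and 6 times in D, 27 and 19 times in E and 18 and 40 times in F. Every A-C sample was far above every D-F sample. Within D-F, all 4 treated samples lay above both untreated samples.

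CD74, the invariant chain (chr5:150401637-150412929, minus strand), stood at 235 and 253 TPM in A, 261 and 274 TPM in B and 271 and 321 TPM in C. It ranked between 309 and 436 among all genes by TPM in those 6 samples. In D-F, CD74 had 0 counts in both D samples, 0 and 4 in E and 12 and 8 in F. All A-C samples were high, with A below B and C and with B and C overlapping, while in D-F only the second E sample and both F samples were above the 3 counts that a count of 0 allows.

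HLA-DRA, the alpha chain of HLA-DR (chr6:32439842-32445046, plus strand), stood at 52.7 and 58.2 TPM in A, 79.3 and 74.1 TPM in B and 93.2 and 101 TPM in C. HLA-DRB1, a beta chain of HLA-DR (chr6:32578769-32589848, minus strand), stood at 6.45 and 6.94 TPM in A, 9.57 and 8.06 TPM in B and 6.54 and 8.02 TPM in C. The 3 dose groups of HLA-DRA did not overlap, whereas those of HLA-DRB1 did. Both genes had no count in any D-F sample, which allows up to 3 counts in each.

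HLA-DPA1, the alpha chain of HLA-DP (chr6:33064569-33080775, minus strand), had 25 and 30 counts in A, 21 and 15 in B and 48 and 31 in C. HLA-DPB1, its beta chain (chr6:33075926-33087201, plus strand), had 17 and 31 counts in A, 34 and 17 in B and 23 and 17 in C. They were the lowest members in A-C, and neither had a count in D-F. The genes overlap on opposite strands, and since the counting is not stated to have used strand their values are uncertain.

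HLA-DMA, the alpha chain of the peptide exchanger HLA-DM (chr6:32948613-32969094, minus strand), had 189 and 284 counts in A, 225 and 201 in B and 221 and 122 in C. Its counts in D-F were 31 and 32 in D, 15 and 19 in E and 24 and 21 in F. HLA-DMB, the beta chain (chr6:32934629-32941070, minus strand), had 37 and 59 counts in A, 78 and 54 in B and 75 and 59 in C. In D-F it had 3 counts in the first E sample, 2 in the first F sample and 0 in the other 4. Reads from HLA-DMA and HLA-DMB are shared with the overlapping locus AL645941.2, and HLA-DMA also overlaps BRD2 on the opposite strand, so both values are uncertain.

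CTSS, cathepsin S (chr1:150730196-150765957, minus strand), stood at 9.10 and 9.55 TPM in A, 12.7 and 12.7 TPM in B and 14.7 and 12.6 TPM in C. In D-F it stood at 1.29 and 1.00 TPM in D, 7.33 and 6.17 TPM in E and 7.96 and 8.38 TPM in F. In both sets every treated sample lay above both untreated samples, and in D-F the treated samples came close to the untreated level of A-C without reaching it.

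**Figure D1:**
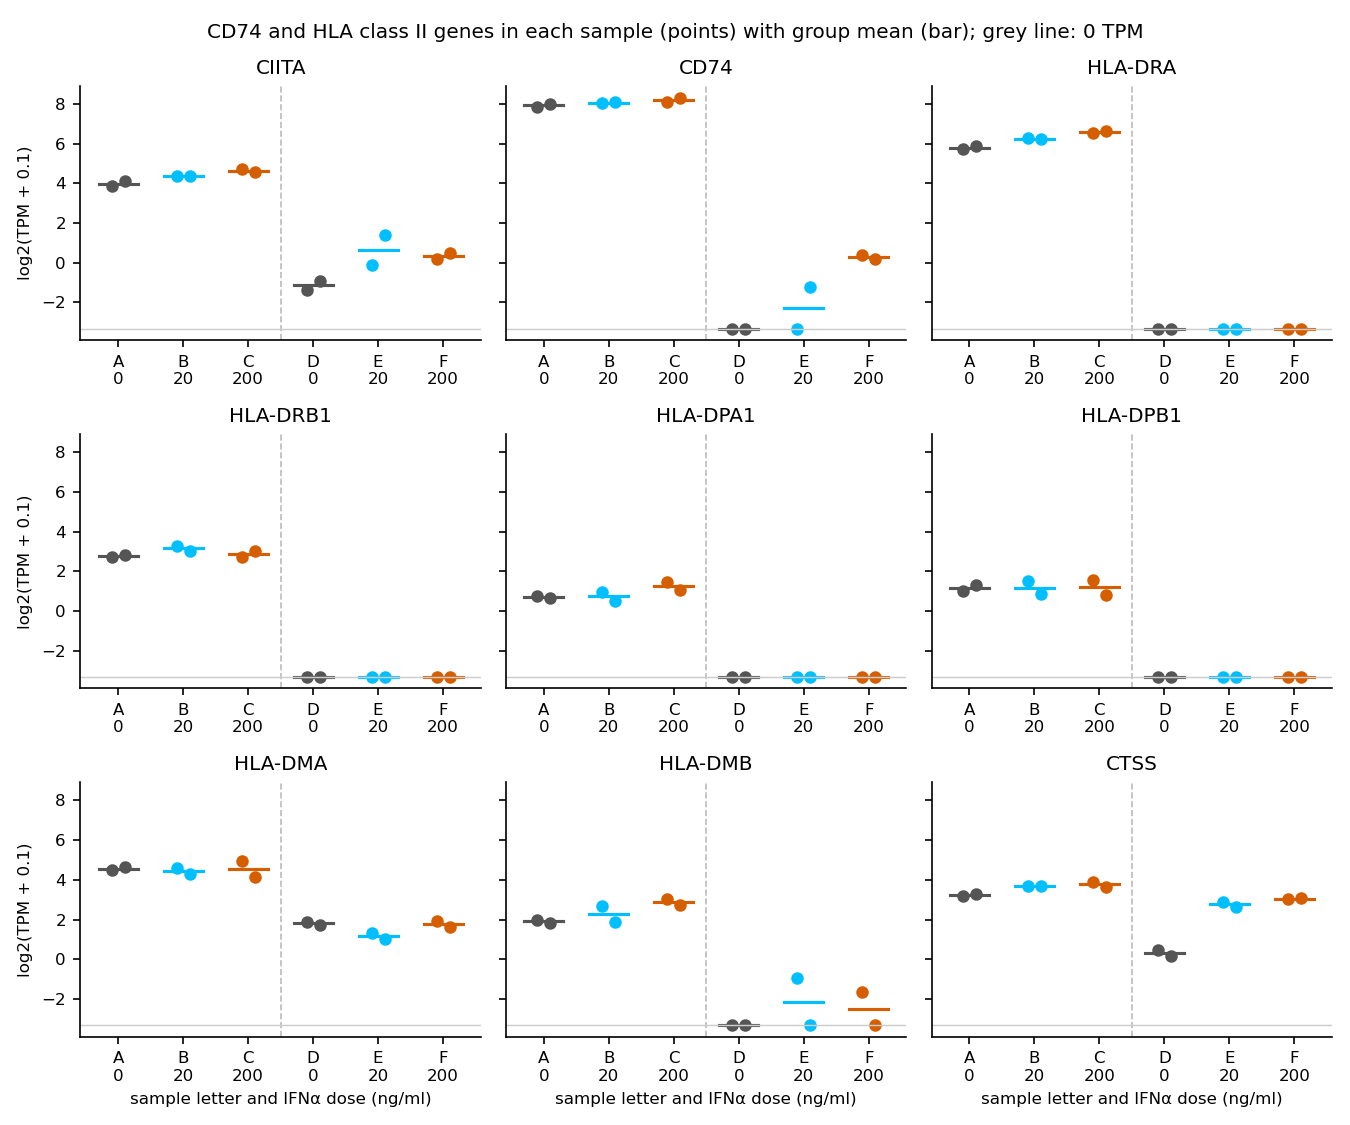
Level of each member in each of the 12 samples, as log2(TPM + 0.1), against sample letter and IFNα dose in ng/ml. Points are samples, bars are group means on that scale and the grey line is 0 TPM. HLA-DRA, HLA-DRB1, HLA-DPA1 and HLA-DPB1 lie on that line in all 6 D-F samples, while CTSS leaves the untreated D level at both doses.

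By median TPM over the 6 samples of A-C, the order of levels was CD74, HLA-DRA, HLA-DMA, CIITA, CTSS, HLA-DRB1, HLA-DMB, HLA-DPB1 and HLA-DPA1. The medians were 266 TPM for CD74, 76.7 TPM for HLA-DRA, 23.5 TPM for HLA-DMA, 20.4 TPM for CIITA and 12.6 TPM for CTSS. CD74 and HLA-DRA, HLA-DRA and HLA-DMA, and HLA-DMB and HLA-DPB1 did not overlap in range. The other neighbours overlapped and are not ordered beyond their spread. The TPM of CD74 was 2.91 to 4.45 times that of HLA-DRA, and that of HLA-DRA was 8.17 to 14.3 times that of HLA-DRB1.

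Without IFNα, the 3 tested members that had counts in D (CIITA, HLA-DMA and CTSS) were called lower in D than in A, where 11.0% of all genes tested were called lower (called means edgeR's quasi-likelihood test with an adjusted p of at most 0.05 and at least a 2-fold difference). CIITA was 70.3-fold higher in A (log2 D over A -6.12, SE 0.51, adjusted p = 1.1e-05). On 16 and 6 counts in D, that log2 value moved to -7.00 without the first D sample and to -5.57 without the second, and limma on log2(TPM + 1) gave -3.63. CTSS was 8.18-fold higher in A (log2 -3.03, SE 0.18, adjusted p = 1.35e-06), and HLA-DMA was 8.14-fold higher (log2 -3.02, SE 0.28, adjusted p = 2.23e-05).

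The other 5 members besides CD74 had no count in D. They passed the filter on low counts only through A-C and could only be called lower in D, so they are described with no test and not counted against the background. Their folds are lower bounds set by 3 counts per library (0.196 CPM in D, where CPM is the count scaled to library size). HLA-DRA was at least 227-fold higher in A and HLA-DRB1 at least 26.9-fold higher. The bound was 17.3-fold for HLA-DMB, 10.1-fold for HLA-DPA1 and 8.58-fold for HLA-DPB1. CD74 was at least 1118-fold higher in A. The calls of CIITA, HLA-DMA and CTSS held when any sample was left out.

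Other class II genes followed in part. Of 12 listed, 10 were in the table and 6 of these had no count in any A-C sample. HLA-DRB5, a further DR beta chain close in sequence to HLA-DRB1, had 38 to 66 counts in A-C and none in D-F, a bound of 17.7-fold between untreated A and D, with no test. Reads of HLA-DRB1 and HLA-DRB5 may be split between these near-identical genes, and alleles that differ from the reference may lose reads. HLA-DQB1, a chain of HLA-DQ, had 29 to 48 counts in A-C and 0 to 7 in D-F, and was lower in D (log2 -2.47, SE 0.53, adjusted p = 0.00383). HLA-DOB, a chain of the HLA-DM inhibitor HLA-DO, had 8 to 45 counts in A-C and 11 to 48 in D-F, and was not called (log2 -1.06, SE 0.73, adjusted p = 0.263).

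The wider class II pathway had calls in both directions, as had all genes tested. Of the 28 genes on its list, which holds the promoter-binding factors, the interferon relay, the endosomal proteases and the CD74 ligand and partners, 27 were tested. Of the calls, 2 were lower in D and 3 were higher, where 2186 and 3124 of all 19944 genes tested were. The median log2 difference was -0.08 over the list and 0.0075 over all genes tested. RFXAP, a subunit of the RFX complex, was counted 159 and 150 times in A and 47 and 44 times in D (log2 -1.91, SE 0.28, adjusted p = 0.000436). Cathepsin B (CTSB) was also lower in D (log2 -3.26, SE 0.29, adjusted p = 1.62e-05).

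The lysosomal proteases CTSD (log2 1.91, SE 0.27, adjusted p = 0.000312), CTSZ (log2 1.84, SE 0.10, adjusted p = 1.04e-06) and CTSV (log2 1.26, SE 0.16, adjusted p = 0.00015) were higher in D. RFX5, the DNA-binding RFX subunit, differed by 0.08 (SE 0.10, adjusted p = 0.544), and MIF, a ligand of CD74, by -0.08 (SE 0.12, adjusted p = 0.627). CXCR4, a CD74 partner, had no count in any sample. HLA-B, a class I gene, was not called between the untreated sets (log2 0.03, SE 0.09, adjusted p = 0.826).

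**Figure D2:**
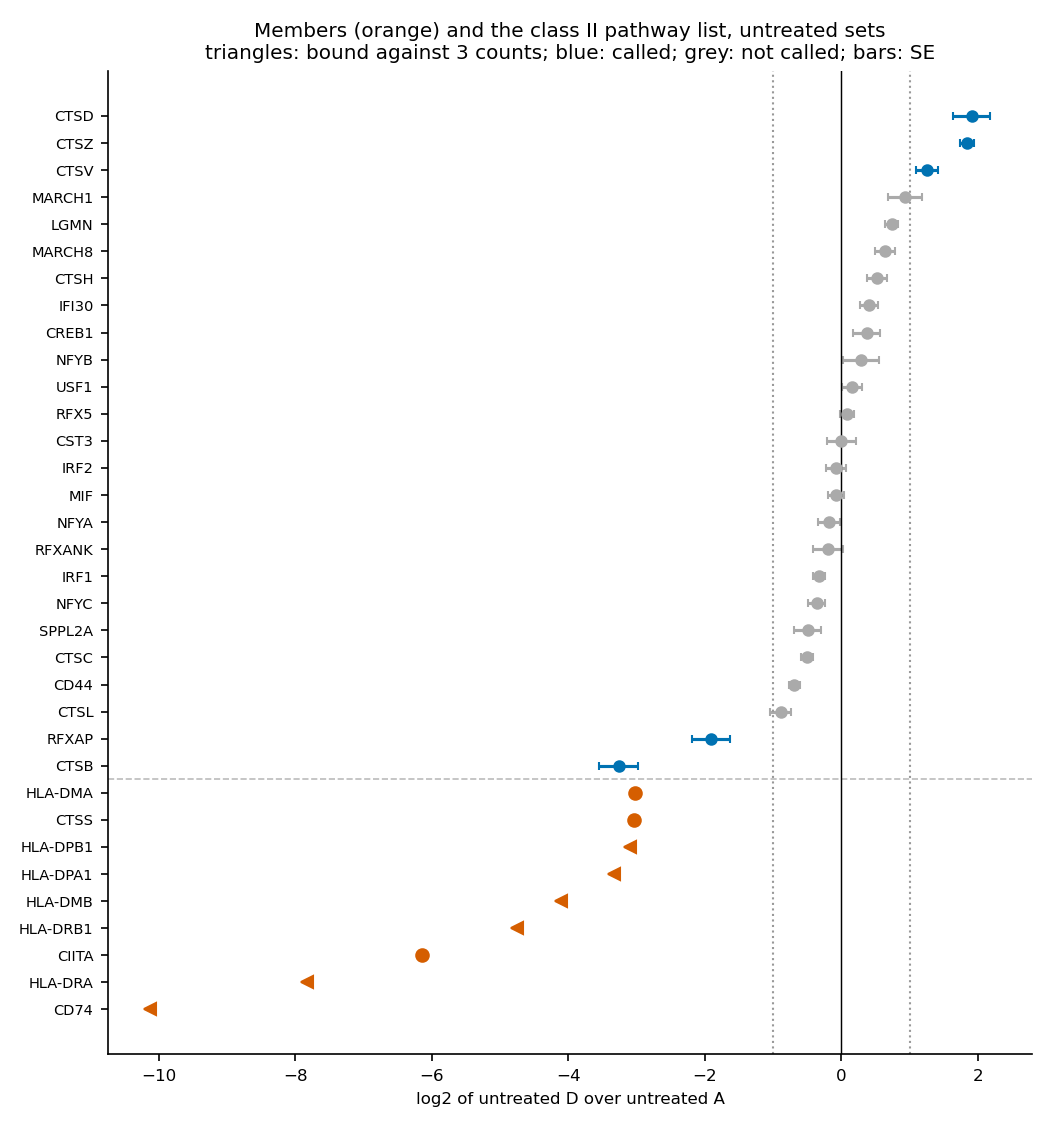
log2 of the level in untreated D over untreated A for the 9 members (orange; triangles are bounds set by 3 counts, where D had none) and for tested pathway genes (blue called, grey not called, bars are standard errors, dotted lines 2-fold). Not every gene of the list is drawn, and CXCR2 is left out since it was at or near 0 in D. All members lie at or below -3.02, while the pathway genes lie on both sides of 0.

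In A-C, IFNα moved no tested member past the threshold. At 20 ng/ml none of the 8 tested members was called higher or lower, where 0.632% of all genes tested were called higher. At 200 ng/ml again none was called, where 1.41% of all genes were called higher. The median log2 fold change of the 8 was 0.31 at 20 ng/ml and 0.33 at 200 ng/ml, against -0.02 and 0.00 over all genes tested.

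Of the 8, HLA-DRA at 200 ng/ml was the only one with an adjusted p under 0.05 in A-C. Its log2 fold change was 0.46 at 20 ng/ml (SE 0.13, adjusted p = 0.219) and 0.79 at 200 ng/ml (SE 0.13, adjusted p = 0.0225). The latter is 1.73-fold and passes the p threshold but not the 2-fold one. Its log2 fold change stayed between 0.69 and 0.88 over 20 settings, the main one among them, with adjusted p from 0.000263 to 0.115.

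CTSS differed by 0.54 at 20 ng/ml (SE 0.15, adjusted p = 0.176) and 0.50 at 200 ng/ml (SE 0.15, adjusted p = 0.0897). HLA-DPA1 differed by 0.92 (SE 0.45, adjusted p = 0.299) and HLA-DMB by 0.91 (SE 0.55, adjusted p = 0.377) at 200 ng/ml, with wide errors from few counts. HLA-DRB1 (0.12, SE 0.29), HLA-DPB1 (0.17, SE 0.58) and HLA-DMA (-0.05, SE 0.25) lay within their errors of 0 at 200 ng/ml. CD74 stood 1.12-fold above control at 20 ng/ml and 1.21-fold above at 200 ng/ml, with no test.

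CIITA depended on the scale in A-C. By counts its log2 fold change was 0.11 (SE 0.35, adjusted p = 0.971) at 20 ng/ml and -0.04 (SE 0.36, adjusted p = 0.988) at 200 ng/ml. By TPM it was 14.6 and 17.1 in A, 20.6 and 20.3 in B and 26.3 and 23.4 in C, so that the dose groups did not overlap, and limma on log2(TPM + 0.1) gave 0.65 at 200 ng/ml (adjusted p = 0.466). CIITA also overlaps DEXI on the opposite strand.

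In D-F, CTSS was the only tested member called. It was called at 20 ng/ml, where 1.20% of all genes were called higher, and at 200 ng/ml, where 1.67% were. Its counts were 46 and 38 in D, 191 and 169 in E and 216 and 230 in F, and no treated sample overlapped the controls. The change was 5.37-fold at 20 ng/ml (log2 2.42, SE 0.18, adjusted p = 4.17e-05) and 6.64-fold at 200 ng/ml (log2 2.73, SE 0.18, adjusted p = 1.47e-05).

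CIITA in D-F was 2.62-fold above control at 20 ng/ml (log2 1.38, SE 0.60, adjusted p = 0.321) and 3.27-fold at 200 ng/ml (log2 1.70, SE 0.58, adjusted p = 0.142), on 6 to 40 counts per sample. The log2 value at 20 ng/ml was 2.25 without the first D sample, 0.83 without the second and 1.05 without the first E sample. At 200 ng/ml it was 2.57 and 1.15 without the first and the second D sample, and 2.15 and 1.03 without the first and the second F sample. CIITA did not pass with edgeR in any of these fits, while DESeq2 called it at 200 ng/ml (adjusted p = 0.0137). HLA-DMA differed by -0.56 (SE 0.32, adjusted p = 0.466) and -0.16 (SE 0.31, adjusted p = 0.867). HLA-DRA, HLA-DRB1, HLA-DPA1 and HLA-DPB1 had no count at any dose, and HLA-DMB stayed at or under 3 counts, so no fold is given for these 5.

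CD74 in D-F, the value on which the genes were selected, was at least 4.19-fold higher at 200 ng/ml than in the untreated samples, measured against 3 counts per library. At 20 ng/ml its mean was at or under that limit and no fold is given. Its 12 and 8 counts in F equal 1.23 and 1.03 TPM, against 235 TPM or more in every A-C sample.

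**Figure D3:**
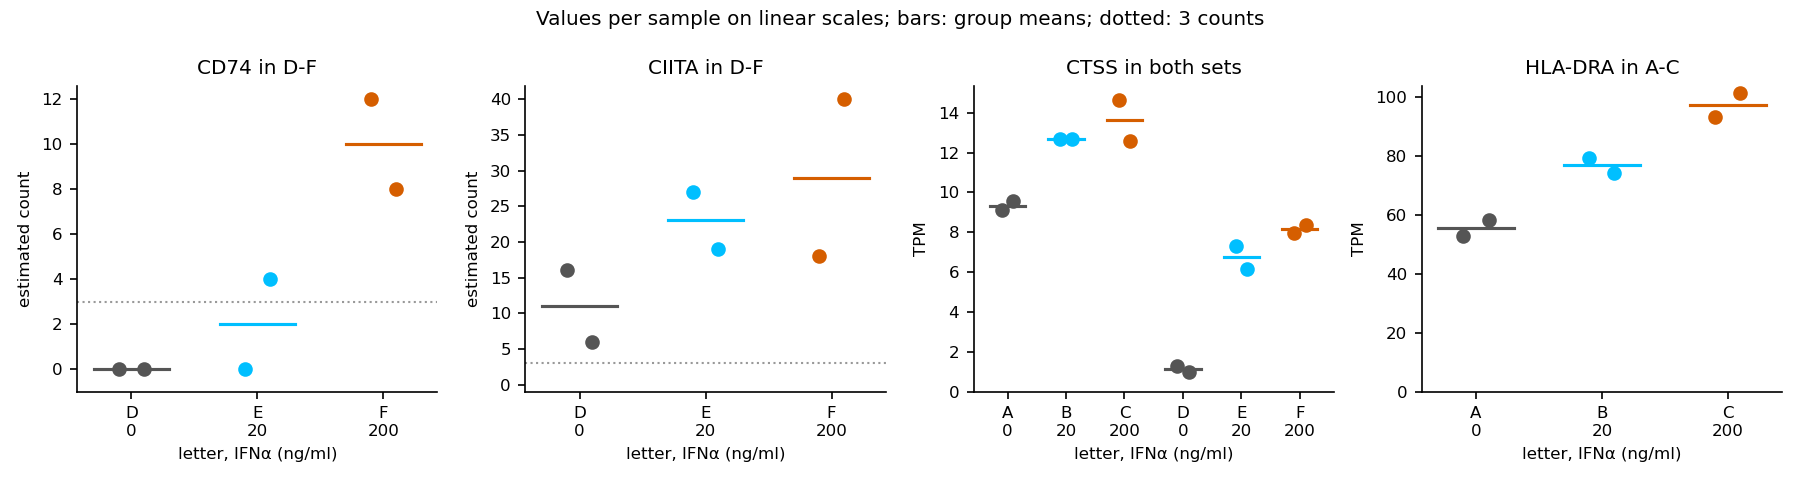
CD74 and CIITA counts in D-F, CTSS TPM in both sets and HLA-DRA TPM in A-C, per sample (points) with group means (bars), against letter and IFNα dose in ng/ml. The dotted line marks 3 counts. CTSS rises from 1.29 TPM or less in D to 6.17 TPM or more in E and F, and CD74 in D-F is above 3 counts in 3 samples.

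The response of CTSS differed between the sets, as did that of most interferon check genes, of which 7 of 8 at 20 ng/ml and 6 of 8 at 200 ng/ml were called for a larger response in D-F (median log2 difference 1.66 and 1.52). Those responses start from unlike levels. Untreated, 5 of the 8 check genes were called lower in D than in A (median log2 -1.72), where 11.0% of all genes tested were. For CTSS the log2 difference, D-F minus A-C, was 1.89 at 20 ng/ml (SE 0.23, adjusted p = 0.0118), where 0.165% of all genes were called higher in this sense, and 2.23 at 200 ng/ml (SE 0.23, adjusted p = 0.00394), where 0.622% were. The call at 20 ng/ml was lost when either B sample, the second D sample or the first E sample was left out (adjusted p 0.0526 to 0.0606). CIITA differed by 1.27 (SE 0.70, adjusted p = 0.571) and 1.74 (SE 0.69, adjusted p = 0.226) and was not called. HLA-DMA differed by -0.52 (SE 0.40, adjusted p = 0.704) and -0.11 (SE 0.39, adjusted p = 0.953).

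For the other 5 tested members the difference in response could not be read, since D-F had no or almost no counts. Between 20 and 200 ng/ml no tested member was called in A-C, where 0.0351% of all genes were called higher, or in D-F, where 0.0100% were. HLA-DRA differed by 0.33 (SE 0.13, adjusted p = 0.37) and HLA-DPA1 by 1.43 (SE 0.47, adjusted p = 0.293) in A-C, and CTSS by 0.31 (SE 0.16, unadjusted p = 0.0835) in D-F.

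**Figure D4:**
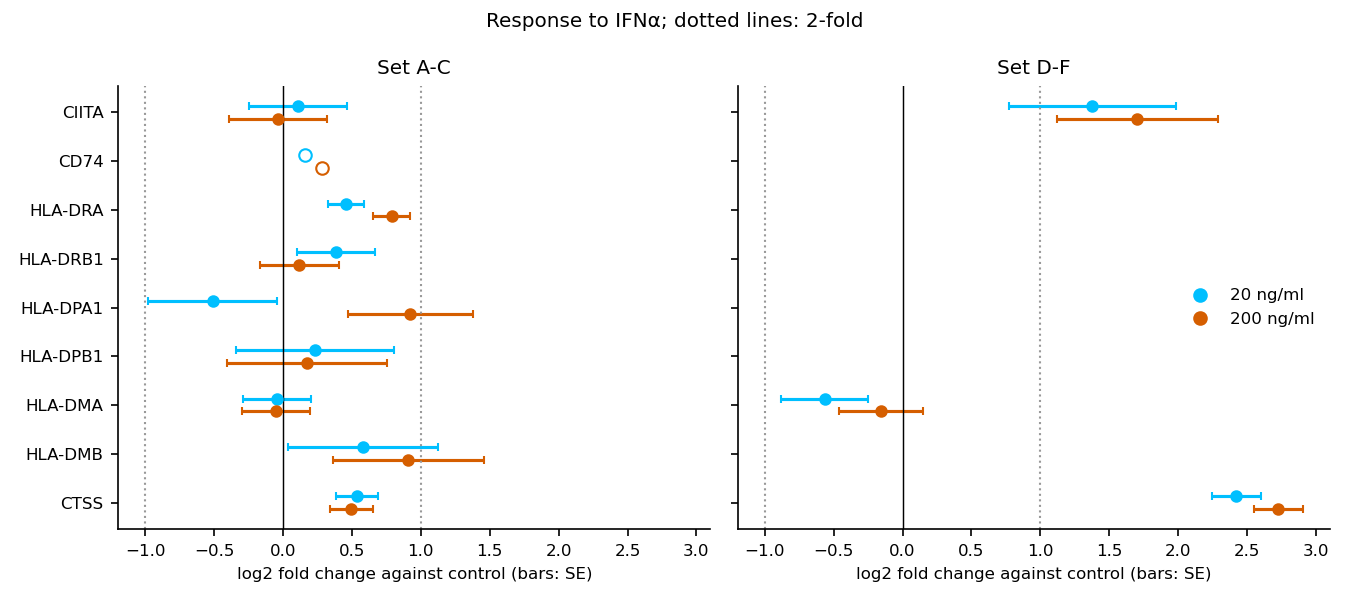
log2 fold change against control in each set at 20 ng/ml (blue) and 200 ng/ml (orange), with standard errors as bars and 2-fold as dotted lines. CD74 is drawn as open circles with no error and only in A-C, and members without enough counts in D-F are left out there. CTSS in D-F, at 2.42 and 2.73, lies apart from every value in A-C.

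The upstream genes of the pathway list were measurable in both sets. IRF1, which acts on the CIITA gene, differed by 0.05 and 0.14 in A-C (SE 0.09 each, adjusted p = 0.931 and 0.395) and by 0.50 and 0.66 in D-F (SE 0.09 each, adjusted p = 0.0159 and 0.00233), under 2-fold. The median of the list was 0.01 and 0.14 in A-C and 0.06 and -0.05 in D-F.

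IRF2 differed by 0.92 at 200 ng/ml in A-C (SE 0.15, adjusted p = 0.00908), under 2-fold. IRF2 stood at 32.7 and 29.7 CPM in A and at 48.0 and 64.8 CPM in C. The protease CTSD stood at 89.8 and 89.6 CPM in A and at 84.9 and 39.2 CPM in C. Both genes lay further from A in the second C sample. The 2 C samples differed in the counts of CTSD (1006 and 412) and CTSB (5517 and 3126). Other listed proteases were closer, such as CTSC (2463 and 2358), CTSH (692 and 614) and CTSZ (1596 and 1272). A gap was not particular to proteases, since B2M had 4817 and 1831 counts in these samples.

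HLA class I genes, which present cytosolic peptides, are given for comparison. In D-F, HLA-B, HLA-E and HLA-F were called higher at both doses, and in A-C none of these was. HLA-B was counted 3466 and 3432 times in D, 11604 and 12087 in E and 13720 and 14568 in F, a log2 fold change of 2.1 and 2.36 (SE 0.09 and 0.10, adjusted p = 1.17e-06 and 4.2e-07). In A-C it differed by 0.78 and 0.61 (SE 0.09 each, adjusted p = 0.00225 and 0.00625), under 2-fold. The difference in response was 1.32 at 20 ng/ml (SE 0.13, adjusted p = 0.00306) and 1.75 at 200 ng/ml (SE 0.13, adjusted p = 0.00111). HLA-B and CTSS both passed the test of a larger response in D-F at both doses. Among the class II chains of the members, only HLA-DMA had counts enough in D-F for such a test.

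Transcript values showed which products made up the members. CD74-202 (ENST00000353334, chr5:150401670-150412929) held 56.0% to 80.9% of CD74 TPM in A-C and CD74-206 held 8.53% to 34.4%. Protein-coding transcripts made up 91.6% to 95.8% of CD74. In F, CD74-202 had 12 and 6 counts, and in the second E sample all 4 counts were given to CD74-206. Protein-coding transcripts made up 82.2% to 100% of CTSS in A-C.

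The transcripts of HLA-DRA did not move alike. HLA-DRA-201 had 48 and 110 counts in A, 122 and 126 in B and 350 and 216 in C, and its share of HLA-DRA TPM was 9.87% to 44.6%. HLA-DRA-202 had 471 and 626 counts in A, 647 and 723 in B and 476 and 565 in C, with no order by dose. Such splits between transcripts that share most exons are estimates.

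Protein-coding transcripts made up only 31.7% to 47.2% of CIITA TPM in A-C, and the rest went to retained-intron and other transcripts. Transcripts that begin at chr16:10877198-10877331 held 10.8 to 13.5 TPM in every A-C sample and 0.08 to 0.82 TPM in D-F. The higher CIITA TPM of the C samples lay mostly in transcripts that begin elsewhere. CIITA-212, protein-coding, begins at 10878969 and held 0.01 and 1.19 TPM in A, 2.33 and 2.26 in B and 6.34 and 2.97 in C. CIITA-208, a processed transcript, begins at 10915646 and held at most 1.74 TPM in A and at least 4.16 TPM in C. Few counts stand behind these values, with 1 and 8 in A and 29 and 12 in C for CIITA-212. For CIITA-208 they were 4 and 10 in A and 17 and 19 in C. HLA-DMA differed in kind between the sets: protein-coding transcripts held 44.6% to 78.1% of its TPM in A-C and 0% to 15.8% in D-F, where at most 32 counts stood behind each share.

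**Figure D5:**
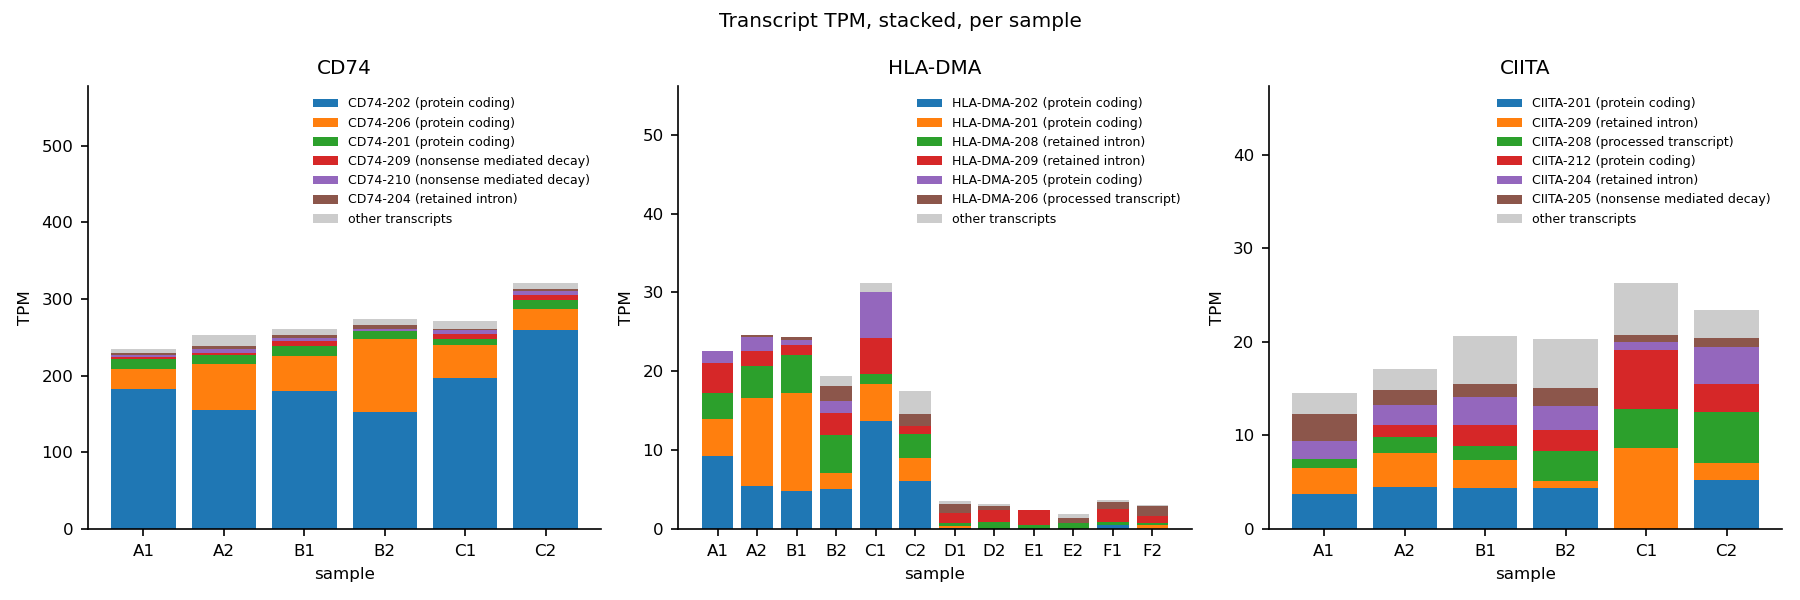
TPM of the 6 highest transcripts of CD74, HLA-DMA and CIITA in each sample, stacked, with the remaining transcripts in grey. CD74 is mostly CD74-202 in all 6 A-C samples, HLA-DMA in D-F is almost without coding transcripts, and CIITA-201 is at 0 in the first C sample.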

How the data were processed

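Total RNA depleted of ribosomal RNA was sequenced by the authors from 12 samples on the HiseqXTen platform. The submitters' processing notes name Trimmomatic 0.36, HISAT2 2.1.0, StringTie 1.3.3b and GRCh38.p10; the annotation release and the counting step are not given in the sources used here. The authors deposited an estimated count per gene and transcript (whole numbers, not scaled for depth). The TPM and FPKM values the authors deposited are scaled for length and depth; FPKM was not used. Groups came from sample titles and the study's design text.

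The members and lists were chosen with earlier results of these data known. Named genes are the 9 members, genes of the lists past the threshold in a response (some are not reported here), and the 5 genes most like CD74. Genes passing edgeR's filter (19944) were fitted over all 12 samples with TMM scaling (R 4.3.3, edgeR 4.0.16). A call needs a fold change of at least 2 and a Benjamini-Hochberg adjusted p of at most 0.05, the study's fold with an adjusted p in place of its t-test. The common biological coefficient of variation was 0.196. A fold against a group at 0 uses 3 counts per library. Such limits cover counting error of that group only and take the mean of the other group as it stands. Replicate numbers were not used to pair the samples in the main fit. Alternatives were other scaling, DESeq2 1.42.0, no filter, fewer samples, an unadjusted p, a replicate block, limma 3.58.1 on log2(TPM + 0.1) or log2(TPM + 1), and leaving out each sample. The fit was tested on simulated data. Python 3.11.15 was used for promoter searches on the RefSeq tables.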

Additional observations from a re-analysis of the deposited data

Results flagged for a closer look

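CTSS, the protease that trims the invariant chain, answered IFNα more strongly in D-F than in A-C by a test of the difference itself: the log2 difference was 1.89 at 20 ng/ml (edgeR adjusted p = 0.0118) and 2.23 at 200 ng/ml (edgeR adjusted p = 0.00394). The same test was passed in the same direction by 7 of 8 interferon check genes at 20 ng/ml and 6 of 8 at 200 ng/ml, so a larger response in D-F was not particular to CTSS. For CTSS the log2 difference at 20 ng/ml ran from 1.45 to 2.02 over 20 settings, the main one among them. That call was lost with limma on log2(TPM + 1) and when some single samples were left out. All 4 treated samples lay above both controls in each set. Both comparisons share the untreated samples A and D. In D, CTSS and 5 of the 8 check genes were called lower than in A, where 11.0% of all genes tested were.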

How the results depend on the processing

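Counts of called members kept within 1.5 times under most alternatives. This says little where a count of 0 stayed at 0, as for the responses in A-C. The count between the untreated sets also holds the 5 members with no count in D, which could only be called lower. Exceptions to that range follow, and the cause was not tested. With an unadjusted p, 2 members were called in D-F at 20 ng/ml, 2 at 200 ng/ml, 2 for the difference in response at 200 ng/ml and 1 between the doses in A-C. The share of all genes at an unadjusted p is not given here, so these counts cannot be set against it. DESeq2 called 2 in D-F at 200 ng/ml, where it called 492 of all 19944 genes in place of 416. For the difference in response at 20 ng/ml, limma on log2(TPM + 1) called 0, and leaving out single samples gave 0 to 1. For the pathway list, an unadjusted p and DESeq2 each called 1 for the difference at 200 ng/ml. Leaving out single samples moved the pathway calls for that difference and at 200 ng/ml in A-C. The number of all genes called moved there as well. Between the untreated sets limma called 8 pathway genes with either pseudocount, in place of 5. There it called 5400 of all genes on log2(TPM + 0.1) and 4656 on log2(TPM + 1), in place of 5310. For the difference in response, DESeq2 called 323 of all genes at 200 ng/ml, in place of 199. At 20 ng/ml, limma on log2(TPM + 1) called 37 of all genes, in place of 46.

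CIITA in A-C changed sign. With single samples left out it ran from -0.028 (without the first A sample) to 0.26 at 20 ng/ml and from -0.60 to 0.36 at 200 ng/ml. The reversed values at 200 ng/ml were 0.65 and 0.62 with limma, 0.11 without the second A sample and 0.36 without the first C sample. With any sample left out, CD74 in A-C stayed at 0.08 to 0.25 and 0.18 to 0.37, and its log2 bound in D-F at 1.72 to 2.35. Same-numbered samples deviated together with correlations of -0.05 to 0.06 over 6 pairs. The labels do not say whether they share a culture, a day or a sequencing run. With the replicate block, CIITA, HLA-DMA and CTSS stayed called between the untreated sets, where 4734 of 19944 genes were called in either direction. CTSS stayed called in D-F at 20 and 200 ng/ml, where 224 and 356 genes were. Depth limits D-F, where 3 counts per library bound most members.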

Other observations

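Over the 12 samples and 19943 other genes tested, the genes whose log2(TPM + 0.1) was most like that of CD74 by Pearson's r were PCDHGB5 (0.996), PARP2 (0.993), ALG5 (0.993), KRT14 (0.992) and SLFN11 (0.991). The points fall into the 2 sets of cells, so r mostly describes the gap between the sets and is given with no p. Among the members, CIITA ranked 115 (0.974), HLA-DRA ranked 145 (0.973) and CTSS ranked 3000 (0.753). KRT14 stood at 41.9 to 49.2 TPM in A-C and at 0.254 TPM or less in D-F, and SLFN11 at 30.3 to 44.1 TPM and at 0.726 TPM or less.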
